A study of Mus musculus with 9 samples.

Results

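The tryptophan to NAD pathway was followed in mouse liver through 10 genes, taken by their symbols: Tdo2, Ido2, Afmid, Kmo, Kynu, Haao, Acmsd, Qprt, Nadsyn1 and Nampt. All 10 were among the 20325 genes of the tables, and all 10 passed the filter on low counts that left 12037 genes for testing. The lowest expected count of any of them in any library was 169, for Acmsd, and the highest was 39022, for Tdo2. Messenger RNA was measured by sequencing in livers of male C57BL/6J mice on a chow diet, in 3 groups of 3 livers. Conventionalized mice (ConvD) had been born germ-free and received cecal contents of conventionally raised mice of the same strain in a single gavage at 15 weeks of age, followed by 4 weeks of colonisation. A second group (GF+SCFA) was kept germ-free, and its drinking water held acetate at 67.5 mM, propionate at 25.9 mM and butyrate at 40 mM, short-chain fatty acids that gut bacteria make from fibre. The third group (GF) was kept germ-free with no supplement. The growth protocol gives dissection at 19 weeks of age, whereas the design text gives 14 weeks. Animals were housed by colonisation status, so cage and group cannot be told apart, and the labels do not say at what hour livers were taken. According to the design text the samples are biological replicates, but no label names the animal behind each. The p-values therefore describe only the spread seen among these libraries.

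Tryptophan that is not built into protein is broken down mainly in hepatocytes. TDO2, like the IDO enzymes, opens the indole ring to formylkynurenine, and AFMID releases kynurenine from it. KMO, KYNU and HAAO then convert kynurenine through hydroxykynurenine and hydroxyanthranilate to aminocarboxymuconate semialdehyde, which stands at a fork. Closing by itself to quinolinate, it becomes a precursor of NAD through QPRT and, at the end, NADSYN1. If ACMSD removes its carboxyl group first, the carbon is lost to complete oxidation or picolinate. NAMPT works outside this route and salvages nicotinamide, the product of NAD-consuming enzymes, back towards NAD.

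In ConvD livers the transcript of the diverting enzyme Acmsd was at less than the level of either germ-free group in every liver, at a fitted 0.398 of the GF+SCFA level and 0.471 of the GF level, and it passed the test against GF+SCFA only. Afmid was lower in ConvD livers against both groups, by a fold of 0.84 against GF+SCFA and 0.849 against GF. Haao was 1.17-fold higher in ConvD than in GF livers. Kmo was lower in ConvD than in GF+SCFA livers, with a fold of 0.87. The Afmid and Haao differences from GF passed the test in 1 and 2 of the 9 fits that each left out 1 library. Against GF+SCFA, Afmid passed in 6 of the 9 and Kmo in 1. Tdo2, Ido2, Kynu, Qprt, Nadsyn1 and Nampt passed the test in no comparison, and 0 of the 10 genes passed it between GF+SCFA and GF livers.

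The sequence before the transcription start is shown for 2 members: Haao, the one member called higher in ConvD livers, and Tdo2, the most abundant and a textbook target of glucocorticoids in liver. Each window holds the 250 bases upstream of the start in RefSeq's GRCm38.p6, which differs from the mm9 build behind the counts, and 8 of the 10 members had a window in that table. Capitals mark matches to the motifs searched. The Haao window is chr17:83846791-83847040 on the minus strand and the Tdo2 window chr3:81975729-81975978 on the minus strand, each written 5′ to 3′ along its gene.
Haao: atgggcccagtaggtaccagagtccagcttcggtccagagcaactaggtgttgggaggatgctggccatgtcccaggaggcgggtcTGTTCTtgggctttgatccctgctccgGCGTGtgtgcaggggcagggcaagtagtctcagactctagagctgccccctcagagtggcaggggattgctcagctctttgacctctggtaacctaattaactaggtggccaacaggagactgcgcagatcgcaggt
Tdo2: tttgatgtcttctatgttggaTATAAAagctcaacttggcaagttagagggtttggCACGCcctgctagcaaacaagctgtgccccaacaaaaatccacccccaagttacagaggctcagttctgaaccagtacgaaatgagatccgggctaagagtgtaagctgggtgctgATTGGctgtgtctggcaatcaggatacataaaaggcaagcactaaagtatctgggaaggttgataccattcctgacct
Both strands were searched for 10 motifs. In the Haao window the glucocorticoid receptor letters TGTTCT, one arm of its element, lay 164 to 159 bases before the start and the xenobiotic response element core GCGTG 137 to 133 bases before it. The Tdo2 window held the TATA box letters TATAAA at 229 to 224 bases, the core GCGTG on the opposite strand (CACGC) at 194 to 190 bases and the CCAAT box on the opposite strand (ATTGG) at 78 to 74 bases before the start. Over all 27025 promoters of the same length, 16.2% held TGTTCT, 28.2% GCGTG, 13% TATAAA and 34.5% CCAAT. Of the 8 member windows, 1 held TGTTCT, 3 GCGTG, 1 TATAAA and 1 CCAAT. The GC box GGGCGG, in 32.9% of all promoters, was found in 3 of the 8 member windows, none of them printed here. The E-box CACGTG, bound by clock proteins, was in 0 of 8 member windows and in 6.05% of all promoters. The interferon-stimulated response element, in 3.04% of all promoters, and the full glucocorticoid response element, in 0.0037%, were also in 0 of 8. So were the PPAR response element, in 0.037%, and the HNF1 site, in 0.0074%. TGTTCT is contained in the full glucocorticoid element, so those searches overlap.

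The members covered a wide range of abundance, and only TPM, which divide counts by transcript length and scale them to a fixed sum, allow genes to be set against each other. Mean TPM over the 9 livers was 1612 for Tdo2, which ranked 76 among all genes, 479 for Haao, 219 for Kmo and 119 for Qprt. It was 80.8 for Afmid, 77.9 for Kynu, 46.9 for Ido2, 39 for Nampt, 13.5 for Acmsd and 11.7 for Nadsyn1. Tdo2 alone made up 54.4% to 65.3% of the members' summed TPM in a liver. That sum lay between 2437 and 3040 in ConvD livers, between 2584 and 2696 in GF+SCFA livers and between 2514 and 3060 in GF livers, so the groups overlapped. Neighbours in this order were not always apart: Afmid and Kynu overlapped in each group, and so did Ido2 and Nampt in GF+SCFA and GF livers. Acmsd and Nadsyn1 changed places between groups. Acmsd averaged 7.44 ± 2.36 TPM in ConvD livers, 17.7 ± 5.34 in GF+SCFA livers and 15.2 ± 3.2 in GF livers (SD, n = 3 each). Nadsyn1 averaged 13.6 ± 1.64 TPM in ConvD livers, 10.6 ± 0.891 in GF+SCFA livers and 11 ± 0.857 in GF livers (SD, n = 3 each). Every ConvD liver thus had more Nadsyn1 than Acmsd, and all GF+SCFA livers had the reverse order.

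**Figure D1:**
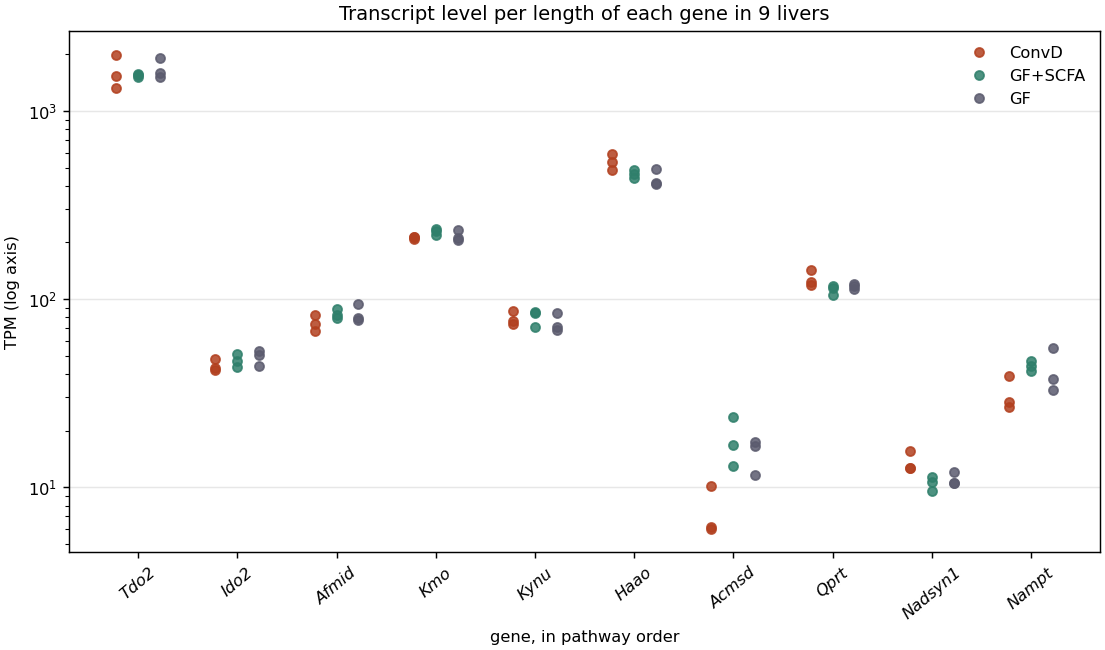
Deposited TPM (log axis) of the 10 genes in pathway order, 1 point per liver, coloured by group. Tdo2 stands at the top with a mean of 1612 TPM and Nadsyn1 at the bottom with 11.7, and Acmsd is the one gene whose ConvD points all lie below both other groups on this scale.

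Setting ConvD against GF livers asks what colonisation changes in the transcripts of formerly germ-free mice. A gene was called where the adjusted p of edgeR's quasi-likelihood test, corrected by the Benjamini-Hochberg method over all 12037 genes, was under 0.05. Of the members, 2 of 10 were called (20%), Haao higher and Afmid lower, where 12.8% of all genes were called (5.92% higher and 6.9% lower). A count of 2 in 10 is a share near this background and is no result about the members. At an unadjusted p under 0.05 the count was 6 of 10, against 28.5% of all genes. The members' median log2 fold change was -0.10 and that of all genes 0.00. In CPM, the groups did not overlap for 1 member higher (Haao) and 3 lower (Afmid, Kmo and Acmsd) in ConvD livers. Of all genes 31.6% did not overlap, 15.7% higher and 15.9% lower. Between ConvD and GF+SCFA livers, which separates the colonised state from the germ-free state with the supplement, 3 of 10 members were called (30%), all lower, where 18.4% of all genes were called (9.42% higher and 8.96% lower). At an unadjusted p under 0.05 the count was 5 of 10, against 33.1% of all genes. The members' median there was -0.14 against 0.01 for all genes. In CPM, those groups did not overlap for 3 members higher (Haao, Qprt and Nadsyn1) and 5 lower (Ido2, Afmid, Kmo, Acmsd and Nampt). Over all genes 38% did not overlap, 19% higher and 18.9% lower. Both comparisons share the ConvD livers. The direction of calls moved with the scaling: 46.1% of the genes called between ConvD and GF were higher in ConvD, against 66.1% with upper-quartile scaling and 73.1% with library totals. Between ConvD and GF+SCFA the share was 51.3%, against 66.8% and 72.4%.

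Setting GF+SCFA against GF livers asks whether the fatty acids alone change the transcripts. Here 0 of 10 members were called, where 0.0415% of all genes, 5 of 12037, were called (0.00831% higher and 0.0332% lower). At an unadjusted p under 0.05 the count of members was also 0, where 12.3% of all genes passed, and DESeq2 called 0 members as well. Kmo, higher in GF+SCFA, was the one member whose CPM did not overlap, where 17.9% of all genes did not (9.03% higher and 8.9% lower). The members' median log2 fold change was 0.06 against -0.01 for all genes. The widest 95% interval of a member was that of Acmsd, from -0.46 to 0.95 on the log2 scale, so neither direction was excluded. The narrowest was that of Kmo, from -0.03 to 0.25.

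**Figure D2:**
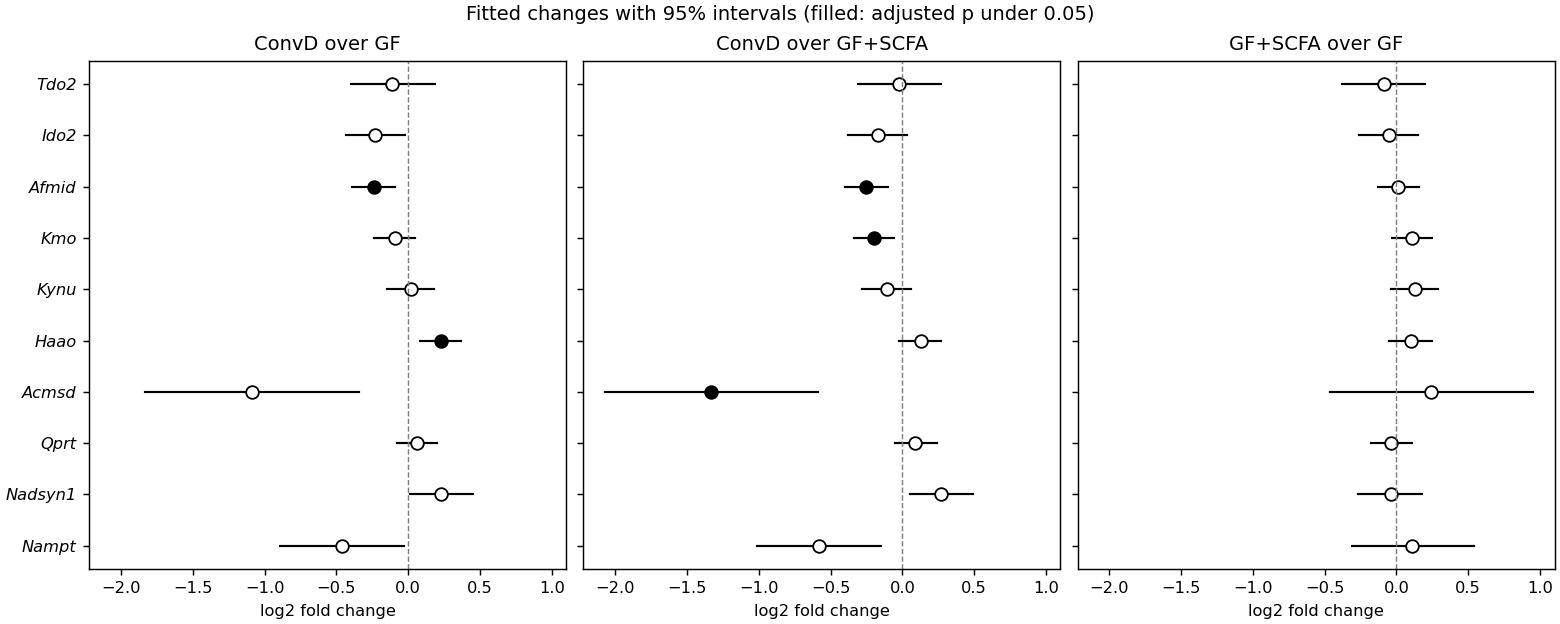
Fitted log2 fold change of each member (horizontal axis) in the 3 comparisons, with 95% intervals as bars and filled points where the adjusted p was under 0.05. Filled points are Afmid and Haao for ConvD over GF and Afmid, Kmo and Acmsd for ConvD over GF+SCFA, and there is none for GF+SCFA over GF.

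The first step is carried in liver mainly by Tdo2. Its level was 1434, 1312 and 2037 CPM (counts scaled to the TMM-adjusted library size) in the ConvD livers, 1648, 1594 and 1600 in the GF+SCFA livers and 1597, 1717 and 1831 in the GF livers. A single ConvD liver, replicate 3, was the highest of all 9, and the other two were the lowest. The log2 fold change of ConvD over GF was -0.11 ± 0.13 (SE; adjusted p = 0.656). Without ConvD replicate 3 it was -0.32 and passed (adjusted p = 0.0299). Against GF+SCFA it was -0.02 (adjusted p = 0.942), with a sign that turned positive, at 0.04 to 0.05, under upper-quartile scaling, library totals and limma on TPM. Ido2, a related dioxygenase of low activity on tryptophan, had 84.1, 79.1 and 83.6 CPM in the ConvD livers, 93.7, 97.7 and 86.6 in the GF+SCFA livers and 106, 103 and 79.5 in the GF livers. In CPM all ConvD livers lay below the GF+SCFA livers, whereas GF replicate 3 lay among the ConvD values. In TPM, ConvD replicate 1 (47.8) lay above GF+SCFA replicate 1 (46.7). The change over GF was -0.23 (adjusted p = 0.135), and without GF replicate 3 it was -0.34 and passed (adjusted p = 0.0108). Ido1, the inducible enzyme of immune cells and gut, was at 0 in 6 of 9 libraries and reached at most 2 counts.

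Afmid, the formamidase of the second step, had 111, 106 and 101 CPM in the ConvD livers, 122, 122 and 135 in the GF+SCFA livers and 122, 122 and 132 in the GF livers. In CPM the ConvD livers were the lowest 3 of the 9. In TPM, ConvD replicate 1 (82.2) lay above GF replicates 1 and 2 (79.7 and 77.8) and GF+SCFA replicate 1 (79.2). The log2 fold change was -0.24 ± 0.07 over GF (SE; adjusted p = 0.0395) and -0.25 ± 0.07 over GF+SCFA (SE; adjusted p = 0.0231). Both calls were close to the threshold. The one against GF held only without GF+SCFA replicate 3 (adjusted p = 0.0409) among the 9 fits that left out a library, and its adjusted p reached 0.115 without GF replicate 3. The one against GF+SCFA was lost without GF+SCFA replicate 3 (adjusted p = 0.106), ConvD replicate 2 (0.0658) or ConvD replicate 3 (0.0625). Of 10 other settings, 4 kept the call against GF and 7 the one against GF+SCFA. Library totals in place of TMM ended both (adjusted p = 0.226 and 0.154). In the annotation Afmid overlaps Tk1, a thymidine kinase gene, on the opposite strand, and the strand setting of the counting is not given, so their reads may be shared. Tk1 was lower as well, with 18.3, 19.6 and 21.4 CPM in the ConvD livers, 26, 25.4 and 26.5 in the GF+SCFA livers and 26, 26.9 and 23.7 in the GF livers. Its log2 fold change was -0.37 over GF (adjusted p = 0.0126) and -0.39 over GF+SCFA (adjusted p = 0.00628).

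Kynurenine is used by KMO, a flavoenzyme of the outer mitochondrial membrane, and by KYNU, which depends on vitamin B6. Kmo had 310, 320 and 342 CPM in the ConvD livers, 364, 375 and 379 in the GF+SCFA livers and 345, 346 and 346 in the GF livers. The order of the groups was complete in CPM: each GF+SCFA liver was above each GF liver, and each GF liver above each ConvD liver. In TPM that order did not hold. There GF replicate 3 (232) lay above GF+SCFA replicates 1 and 3 (220 and 231). ConvD replicates 1 and 3 (214 each) lay above GF replicates 1 and 2 (211 and 206). Against GF+SCFA the log2 fold change of ConvD was -0.20 ± 0.07 (SE; adjusted p = 0.0476). Against GF it was -0.09 (adjusted p = 0.376). Among the fits that left out a library, the call against GF+SCFA held only without ConvD replicate 3 (adjusted p = 0.0263). Its adjusted p reached 0.157 without ConvD replicate 1 and 0.234 with library totals. Of 10 other settings 3 kept that call. Kynu had 138, 124 and 135 CPM in the ConvD livers, 129, 146 and 153 in the GF+SCFA livers and 127, 127 and 139 in the GF livers. All groups overlapped, and its fold change was 0.02 over GF (adjusted p = 0.924) and -0.11 over GF+SCFA (adjusted p = 0.345) on the log2 scale.

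Haao, the dioxygenase that makes the semialdehyde at the fork, had 404, 389 and 367 CPM in the ConvD livers, 345, 362 and 357 in the GF+SCFA livers and 316, 331 and 345 in the GF livers. In CPM the ConvD livers were the highest 3 of the 9, whereas in TPM GF replicate 3 (489) lay above ConvD replicate 3 (486). The log2 fold change over GF was 0.23 ± 0.07 (SE; adjusted p = 0.0452), and over GF+SCFA it was 0.13 ± 0.07 (SE; adjusted p = 0.219). Among the fits that left out a library, the call held only without GF replicate 3 (adjusted p = 0.0453) and ConvD replicate 3 (adjusted p = 0.0301), and its adjusted p reached 0.155 without GF replicate 1. Of 10 other settings 6 kept it, and it was lost with limma on TPM (adjusted p = 0.0754), with no filter on low counts (0.0633), with the replicate block (0.0672) and in the fit of only those groups (0.0922). The direction held in every fit.

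At the fork, Acmsd had 8.2, 8.54 and 14.9 CPM in the ConvD livers, 19.7, 24.2 and 35.4 in the GF+SCFA livers and 25, 18 and 24.1 in the GF livers. All ConvD livers were below all others, ConvD replicate 3 being the highest of them, and the spread within a group was large, with a coefficient of variation of 35.9% in ConvD, 30.6% in GF+SCFA and 17.1% in GF. The log2 fold change was -1.33 ± 0.31 over GF+SCFA (SE; adjusted p = 0.0276) and -1.09 ± 0.31 over GF (SE; adjusted p = 0.0666). The call against GF+SCFA was lost without GF+SCFA replicate 2 (adjusted p = 0.064), ConvD replicate 1 (0.0846) or ConvD replicate 2 (0.0934), and in the fit of only those groups (0.0623). The change over GF passed without ConvD replicate 3 (adjusted p = 0.0225), without GF+SCFA replicate 3 (0.036) and with DESeq2 (0.0124). In all settings the direction was the same in both ConvD comparisons. ACMSD is also abundant in kidney, and the kidney genes Umod and Kap were at 0 in all 9 libraries. Slc34a1, the other kidney gene looked at, was at 0 in 7 of 9 libraries and reached at most 1 count.

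On the other side of the fork, Qprt, which joins quinolinate to phosphoribosyl pyrophosphate, had 95.3, 87.4 and 87.8 CPM in the ConvD livers, 80.4, 85.8 and 87.1 in the GF+SCFA livers and 85.5, 90.6 and 83.5 in the GF livers. The ConvD livers lay above the GF+SCFA livers by a small margin and among the GF livers. Its log2 fold change was 0.06 over GF (adjusted p = 0.597) and 0.09 over GF+SCFA (adjusted p = 0.344). Nadsyn1, the amidating enzyme at the end of the route, had 23.7, 20.4 and 21.5 CPM in the ConvD livers, 18.7, 19 and 16.6 in the GF+SCFA livers and 18.1, 21.3 and 16.6 in the GF livers. All ConvD livers lay above the GF+SCFA livers, with a log2 fold change of 0.27 ± 0.10 (SE; adjusted p = 0.0828). That change passed with upper-quartile scaling (adjusted p = 0.0416), library totals (0.0293) and limma on TPM (0.0462). Over GF the change was 0.23 (adjusted p = 0.16).

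Nampt, the rate-limiting enzyme of nicotinamide salvage, had 76.5, 111 and 78.8 CPM in the ConvD livers, 135, 121 and 141 in the GF+SCFA livers and 99.1, 117 and 151 in the GF livers. The ConvD livers lay below all GF+SCFA livers, and ConvD replicate 2 lay among the GF livers. The log2 fold change was -0.58 ± 0.19 over GF+SCFA (SE; adjusted p = 0.0678) and -0.46 ± 0.19 over GF (SE; adjusted p = 0.147). Without ConvD replicate 2 both passed (adjusted p = 0.0144 over GF+SCFA and 0.0398 over GF). The change over GF+SCFA also passed without GF replicate 1 (adjusted p = 0.0368) and without GF replicate 3 (adjusted p = 0.0241). DESeq2 called Nampt lower in both comparisons (adjusted p = 0.00361 and 0.0331).

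**Figure D3:**
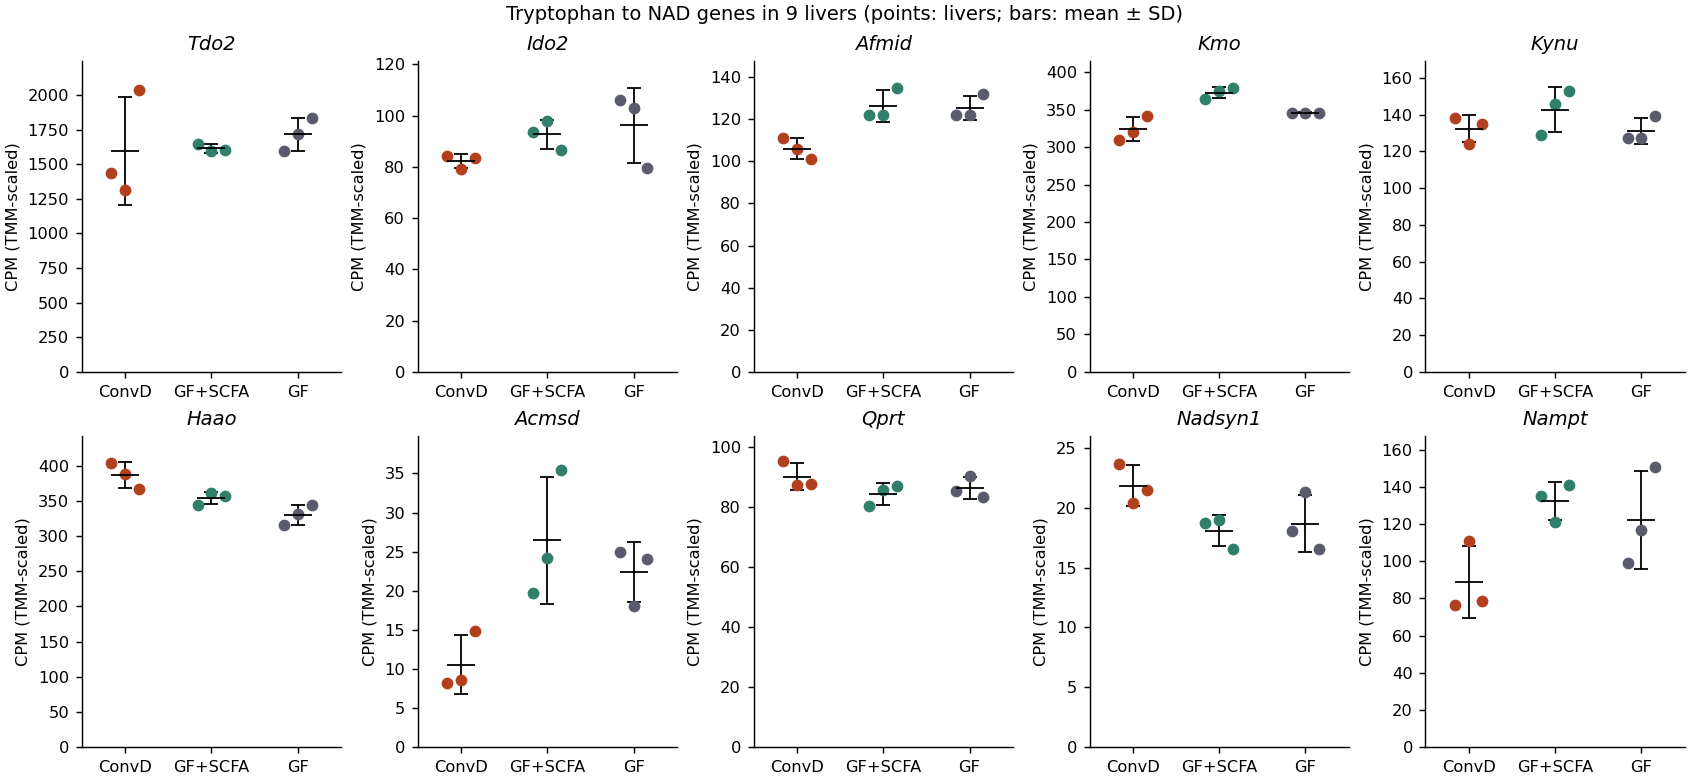
CPM (TMM-scaled, axes from 0) of each member in ConvD, GF+SCFA and GF livers, with 1 point per liver and bars for the mean and SD of 3 livers. Acmsd, Afmid and Kmo have all ConvD points below both other groups, and Haao has them above.

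To set neighbouring steps against each other within a liver, 4 ratios of TPM were compared by exact two-sided permutation tests. With 3 livers against 3 the smallest possible p is 0.1, and p-values were adjusted over the 12 tests, so no ratio could pass. Acmsd over Qprt, oxidation against NAD synthesis, was 0.0431, 0.049 and 0.0854 in the ConvD livers, 0.123, 0.142 and 0.204 in the GF+SCFA livers and 0.147, 0.0995 and 0.145 in the GF livers. The ConvD livers were all below the others. The ratio averaged 0.0592 ± 0.0229 in ConvD and 0.156 ± 0.0424 in GF+SCFA livers, against 0.13 ± 0.0267 in GF livers (SD, n = 3 each). Exact permutation p was 0.1 for ConvD against each of the other groups (adjusted 0.4). Nampt over Qprt, salvage against synthesis from tryptophan, was 0.2, 0.316 and 0.224 in the ConvD livers, 0.417, 0.352 and 0.405 in the GF+SCFA livers and 0.289, 0.321 and 0.451 in the GF livers. ConvD lay below GF+SCFA without overlap (exact permutation p = 0.1, adjusted 0.4) and overlapped GF (exact permutation p = 0.2, adjusted 0.6). Ido2 over Tdo2 averaged 0.0282 ± 0.00565 in ConvD, 0.0304 ± 0.00192 in GF+SCFA and 0.0299 ± 0.00625 in GF livers, and Kynu over Kmo 0.372 ± 0.0278, 0.349 ± 0.0235 and 0.345 ± 0.0177 in the same groups (SD, n = 3 each). For both of these the groups overlapped in all comparisons, with exact permutation p from 0.3 to 0.9.

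**Figure D4:**
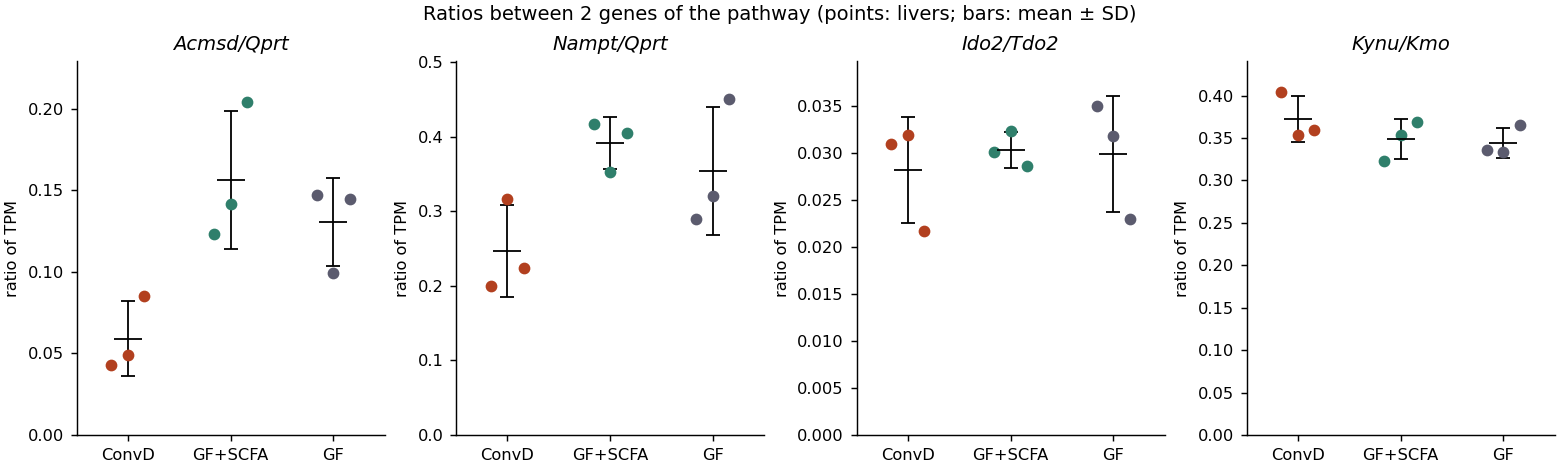
Ratio of TPM between 2 genes within each liver, with 1 point per liver and bars for the mean and SD of 3 livers. The Acmsd over Qprt ratio is 0.0431 to 0.0854 in ConvD livers, below all other livers, and the Ido2 over Tdo2 and Kynu over Kmo ratios overlap between groups.

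Genes around the pathway were counted by list, and each count below stands against the 12.8% of all genes called between ConvD and GF livers and the 18.4% called between ConvD and GF+SCFA livers. Genes that branch from kynurenine were called in both directions. Of 12 tested genes of kynurenine side branches and further oxidation, 1 was higher and 1 lower in ConvD than in GF livers, and the same counts held against GF+SCFA livers. Both encode transaminases that turn kynurenine into kynurenic acid. Ccbl1 (now Kyat1) had 113, 112 and 107 CPM in the ConvD livers, 94.9, 84.7 and 96.6 in the GF+SCFA livers and 92.7, 85.2 and 82.7 in the GF livers. Ccbl2 (now Kyat3) had 129, 153 and 165 CPM in the ConvD livers, 208, 214 and 217 in the GF+SCFA livers and 207, 177 and 195 in the GF livers. Ccbl1 and Ccbl2 thus differed in opposite directions with no overlap of ConvD with either germ-free group. No other gene of this list, Aadat and Got2 among them, was called in these comparisons. Ccbl1 changed by 0.35 over GF (adjusted p = 0.00692) and 0.27 over GF+SCFA (adjusted p = 0.019), and Ccbl2 by -0.37 (adjusted p = 0.0159) and -0.51 (adjusted p = 0.0017) on the log2 scale. The Ccbl1 call against GF+SCFA was lost without GF+SCFA replicate 2 (adjusted p = 0.0918), ConvD replicate 1 (0.0662) or ConvD replicate 2 (0.0565). The Ccbl2 call against GF was lost without GF replicate 1 (adjusted p = 0.0665) or ConvD replicate 1 (0.0604). The median over the 12 genes was 0.02 over GF and -0.09 over GF+SCFA.

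Among 11 tested genes of tryptophan transport and its other uses, 2 were higher and 1 lower in ConvD than in GF livers, with a median log2 fold change of -0.05. Slc16a10, an aromatic amino acid transporter, had 68.3, 61.4 and 97.8 CPM in the ConvD livers, 97.5, 118 and 119 in the GF+SCFA livers and 122, 126 and 132 in the GF livers. Its values fell below all GF livers, with a log2 fold change of -0.74 (adjusted p = 0.0185), and the call was lost without GF replicate 2 (adjusted p = 0.0601), GF replicate 3 (0.0601) or ConvD replicate 1 (0.0594). Against GF+SCFA the change was -0.56 (adjusted p = 0.0407), and 2 of the 9 fits without a library kept that call. Ddc, the aromatic amino acid decarboxylase, rose by 0.59 over GF (adjusted p = 0.0116), and Slc7a8, a neutral amino acid exchanger, by 0.86 (adjusted p = 0.0101). Against GF+SCFA their changes were 0.35 (adjusted p = 0.0716) and 0.47 (adjusted p = 0.0901). Tph1, which starts serotonin synthesis in the gut, was at 0 in all 9 livers.

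In NAD salvage and other precursor routes, 2 of 10 tested genes were higher and 0 lower in ConvD than in GF livers (median 0.06), and 1 was higher and 2 lower than in GF+SCFA livers (median 0.16). Nmnat3, a mitochondrial adenylyltransferase of NAD synthesis, had 7.37, 8.1 and 9.14 CPM in the ConvD livers, 4.93, 5.21 and 3.82 in the GF+SCFA livers and 5.22, 5.64 and 4.55 in the GF livers. It was higher in every ConvD liver, by 0.68 over GF (adjusted p = 0.00967) and 0.81 over GF+SCFA (adjusted p = 0.00225), and kept both calls in all 9 fits without a library. Nt5e, an ectonucleotidase that can act on nicotinamide mononucleotide, rose by 0.60 over GF (adjusted p = 0.0286), a call lost without GF replicate 1 (adjusted p = 0.0978), GF replicate 2 (0.0899) or ConvD replicate 3 (0.0905). Against GF+SCFA, BC016495 (now Nmrk1, nicotinamide riboside kinase) fell by 0.34 on the log2 scale (adjusted p = 0.0161), a call lost without GF+SCFA replicate 3 (adjusted p = 0.0578), ConvD replicate 1 (0.0667) or ConvD replicate 3 (0.051). Mcart1 (now Slc25a51, the mitochondrial NAD carrier) fell by 0.92 there (adjusted p = 0.0362), a call kept in 3 of the 9 fits without a library. Naprt1 (now Naprt), which takes nicotinic acid into NAD synthesis, had 67.1, 62.7 and 56.1 CPM in the ConvD livers, 54.7, 57.7 and 52.9 in the GF+SCFA livers and 54, 61.6 and 55.1 in the GF livers, with overlap between ConvD and both groups, and was not called.

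Of 10 genes of NADP and NADPH supply, 1 was higher and 2 lower in ConvD than in GF livers (median 0.10), and 2 were higher and 1 lower than in GF+SCFA livers (median 0.04). Nadk, the cytosolic NAD kinase, had 166, 157 and 145 CPM in the ConvD livers, 183, 200 and 198 in the GF+SCFA livers and 202, 189 and 213 in the GF livers. The change was -0.37 over GF (adjusted p = 0.00673) and -0.31 over GF+SCFA (adjusted p = 0.0107). Pgd, a dehydrogenase of the pentose phosphate pathway, rose by 0.63 over GF (adjusted p = 0.00156) and 0.60 over GF+SCFA (adjusted p = 0.00127). All 4 of these calls held in all 9 fits without a library. G6pdx, at the entry of the same pathway, rose by 0.62 over GF+SCFA (adjusted p = 0.045), a call kept in 2 of the 9 fits, and by 0.59 over GF it was not called (adjusted p = 0.0639). Nnt, the mitochondrial transhydrogenase gene in which the C57BL/6J strain carries a deletion, had 38.7, 35.1 and 33.7 CPM in the ConvD livers, 41.5, 41.5 and 37.6 in the GF+SCFA livers and 42.9, 44.6 and 42.1 in the GF livers. It fell by 0.27 over GF on the log2 scale (adjusted p = 0.0324), a call lost without GF replicate 1 (adjusted p = 0.0759), GF replicate 2 (0.0925), ConvD replicate 2 (0.112) or ConvD replicate 3 (0.0887).

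Of 21 tested NAD-consuming enzymes and enzymes that clear nicotinamide, 4 were higher and 0 lower in ConvD than in GF livers (19% called, against 12.8% of all genes; median 0.17), a share near the background. Against GF+SCFA livers 9 were higher and 0 lower (42.9% called, against 18.4% of all genes; median 0.21). Parp3, an ADP-ribosyltransferase of DNA repair, had 27.5, 29.9 and 24.7 CPM in the ConvD livers, 19.7, 17.4 and 17 in the GF+SCFA livers and 17.1, 19.2 and 17 in the GF livers. It rose by 0.62 over GF (adjusted p = 0.00139) and 0.60 over GF+SCFA (adjusted p = 0.000984). Parp10, Parp12 and Parp14 are known as interferon-induced ADP-ribosyltransferases. Parp14 had 43.8, 49.2 and 48.7 CPM in the ConvD livers, 29.4, 29.4 and 27.3 in the GF+SCFA livers and 47.2, 41.9 and 32.2 in the GF livers. ConvD livers thus exceeded the GF+SCFA livers (0.72, adjusted p = 0.00127) but overlapped the GF livers (0.23, adjusted p = 0.212). Parp10 rose by 0.40 over GF (adjusted p = 0.0186) and 0.48 over GF+SCFA (adjusted p = 0.00576), and Parp12 by 0.30 (adjusted p = 0.023) and 0.38 (adjusted p = 0.00498). Both calls over GF were lost without GF replicate 1 (adjusted p = 0.0588 for Parp10 and 0.078 for Parp12) and without ConvD replicate 2 (0.0762 and 0.0897), that of Parp10 also without GF replicate 2 (0.0534), and that of Parp12 also without GF replicate 3 (0.0521) or ConvD replicate 3 (0.0572).

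KYNU and the kynurenine transaminases use pyridoxal phosphate, and KMO uses flavin. Of 6 tested genes of vitamin B6 and flavin supply, 1 was lower in ConvD than in GF livers (median -0.07) and 2 lower than in GF+SCFA livers (median -0.28), with 0 higher in either. Pdxk, the kinase that makes pyridoxal phosphate, had 61.7, 69 and 69.9 CPM in the ConvD livers, 121, 113 and 111 in the GF+SCFA livers and 118, 115 and 106 in the GF livers. The groups were well apart, with a fold of 0.591 over GF (adjusted p = 7.36e-05) and 0.581 over GF+SCFA (adjusted p = 2.67e-05), and both calls held in all 9 fits without a library. Slc25a32, which carries folate or flavin into mitochondria, fell by 0.46 over GF+SCFA on the log2 scale (adjusted p = 0.0486), a call kept in 4 of the 9 fits.

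**Figure D5:**
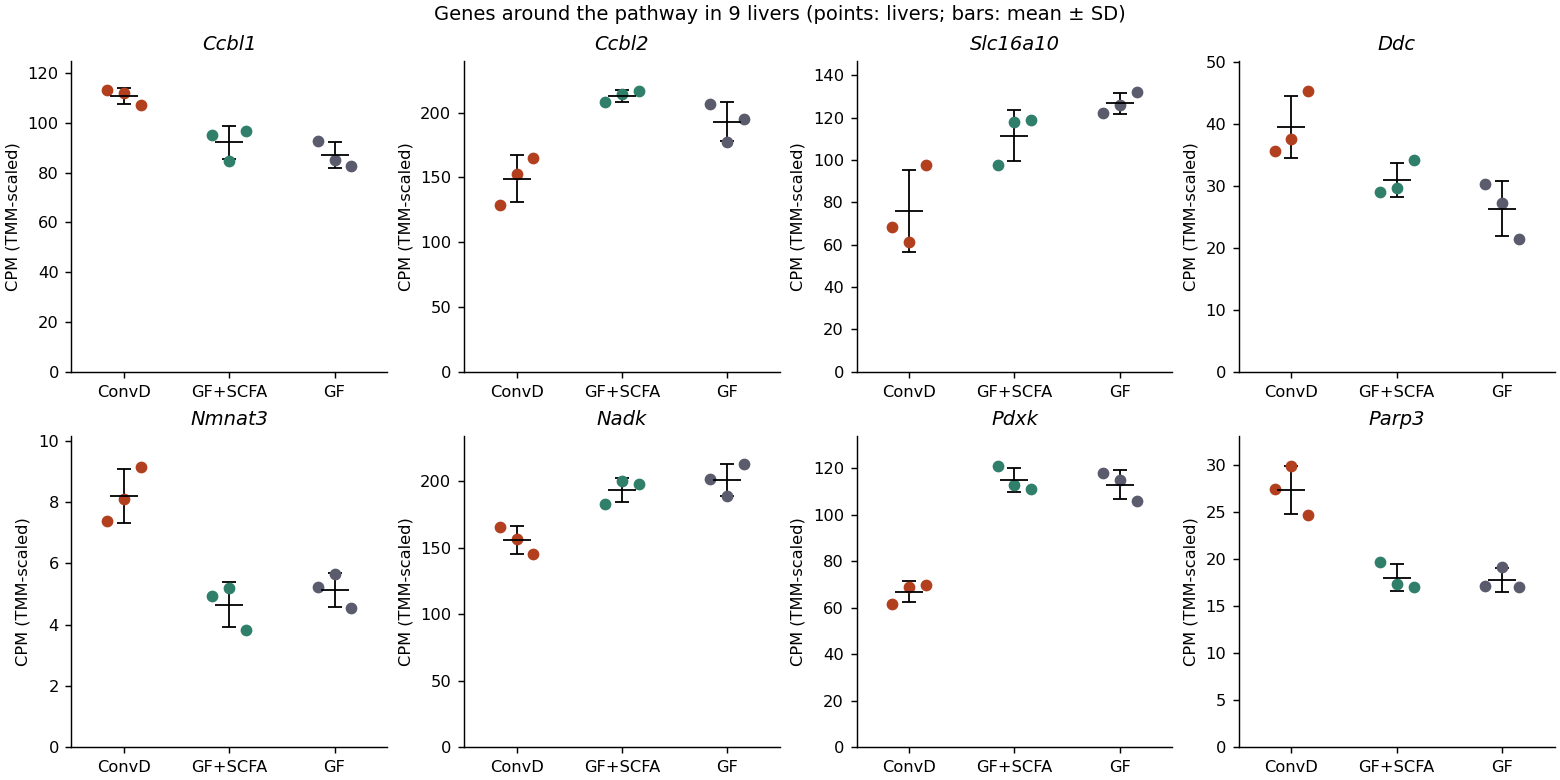
CPM (TMM-scaled, axes from 0) of 8 genes around the pathway in ConvD, GF+SCFA and GF livers, with 1 point per liver and bars for the mean and SD of 3 livers. Ccbl1, Ddc, Nmnat3 and Parp3 have all ConvD points above the GF points, and Ccbl2, Slc16a10, Nadk and Pdxk have them below.

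Gene groups known to act on the pathway were read beside it. Tdo2 and Tat are textbook glucocorticoid targets of hepatocytes. Of 10 glucocorticoid-responsive genes, 7 were lower in ConvD than in GF livers (median -0.98) and 7 lower than in GF+SCFA livers (median -1.15). Tat, tyrosine aminotransferase, had 1535, 1300 and 1556 CPM in the ConvD livers, 2947, 3220 and 4236 in the GF+SCFA livers and 3095, 2698 and 3900 in the GF livers. Tat thus lay lower in each ConvD liver, with a log2 fold change of -1.14 over GF (adjusted p = 0.00153), while Tdo2 was not called. Pck1 and Tsc22d3 of this list fell by 0.88 (adjusted p = 0.000179) and 0.68 (adjusted p = 0.00725) over GF on the log2 scale. Nampt is known as a target of the circadian clock. Of 13 core clock genes, 5 were lower and 0 higher in ConvD than in GF livers (median -0.31). Against GF+SCFA livers 7 were lower and 2 higher (median -0.26). Nr1d1 lay above every germ-free liver, with 61, 54.6 and 47.7 CPM in the ConvD livers. It had 20.9, 27.8 and 14.2 in the GF+SCFA livers and 29.3, 32.3 and 18 in the GF livers. Dbp had 80.7, 81.9 and 81.6 CPM in the ConvD livers, above the GF+SCFA livers (47.2, 47.8 and 40.6) but among the GF livers (74.2, 87.6 and 49.2). Cry1, a repressor of the clock, had 2.43, 3.46 and 3.82 CPM in the ConvD livers, 10.5, 12.8 and 12.2 in the GF+SCFA livers and 10.3, 7.57 and 9.2 in the GF livers. It fell by 1.48 over GF on the log2 scale (adjusted p = 0.00018), and Per2 by 0.84 (adjusted p = 0.000358), while Per1, which stands on both lists, changed by -0.34 over GF (adjusted p = 0.0649) and -0.58 over GF+SCFA (adjusted p = 0.00437). The part of these groups in the members' values was not tested.

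Kynurenine and its derivatives can act on the aryl hydrocarbon receptor. Ahr itself had 31, 37.3 and 40.6 CPM in the ConvD livers, 53.9, 70.2 and 71.2 in the GF+SCFA livers and 52.3, 50.7 and 65.9 in the GF livers. It fell by 0.63 over GF (adjusted p = 0.018, and 0.0577 without ConvD replicate 2) and by 0.84 over GF+SCFA (adjusted p = 0.00321) on the log2 scale. Its partner Arnt fell by 0.33 over GF (adjusted p = 0.046), a call kept in 3 of the 9 fits without a library, and by 0.45 over GF+SCFA (adjusted p = 0.00805). They were the only calls among 8 tested genes of the receptor and its targets, whose medians were 0.13 and 0.15. Of 12 liver transcription factors and nuclear receptors, 3 were higher in ConvD than in GF livers (median 0.00): Cebpa by 0.37 (adjusted p = 0.0168), Foxa2 by 0.85 (adjusted p = 0.0211) and Pparg by 1.32 (adjusted p = 0.0339). The Pparg call was kept in 2 of the 9 fits without a library, that of Foxa2 in 5 and that of Cebpa in 7. Against GF+SCFA, Cebpa rose by 0.49 (adjusted p = 0.0023) and Foxa2 by 0.89 (adjusted p = 0.0129), and Hnf4a fell by 0.30 (adjusted p = 0.0338), a call kept in 4 of the 9 fits. Of the calls named in these lists, those of Nnt and Arnt over GF and of Slc16a10, Slc25a32 and Hnf4a over GF+SCFA were kept under 1 of 3 other scalings. Those of Ccbl2 over GF and of Nadk, BC016495 and Mcart1 over GF+SCFA were kept under 2 of 3. Between GF+SCFA and GF livers, 0 genes of any list were called.

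Interferon-stimulated genes, of which Ido1 and several Parp genes are known members, were higher in ConvD livers for 11 of 18 against GF (median 0.68) and 17 of 18 against GF+SCFA (median 0.69). Psmb9, an inducible subunit of the proteasome, and Isg15, a ubiquitin-like modifier, rose by 0.75 each over GF (adjusted p = 0.0011 and 0.00152), and Ifit3 by 0.76 (adjusted p = 0.00136), each call kept in all 9 fits without a library. Marker genes were summed by cell type, and in whole liver such sums cannot tell fewer cells of a type from less RNA per cell. The 10 markers of Kupffer cells and macrophages summed to 528 to 738 CPM in ConvD livers, 405 to 499 in GF+SCFA livers and 379 to 455 in GF livers, with 8 of 10 called higher in ConvD than in GF livers (80%, against 12.8% of all genes; median 0.62) and 3 of 10 than in GF+SCFA livers (30%, against 18.4%; median 0.39). Of 7 tested monocyte and neutrophil markers, 4 were called higher in ConvD than in GF livers (57.1%, against 12.8% of all genes), with a median log2 fold change of 3.25. Against GF+SCFA livers 5 were called higher (71.4%, against 18.4%), with a median of 4.07. Several of these markers had few counts, so the size of their fold changes is uncertain. Ltf was at 0 in 6 of 9 libraries and reached at most 30 counts. Ngp was at 0 in 4 libraries and reached at most 46 counts, and S100a8 reached at most 53. All 8 markers summed to 52 to 77.9 CPM in ConvD livers, 38.5 to 56.9 in GF+SCFA livers and 38.4 to 50.3 in GF livers. Lyz2, which macrophages also express, made up most of that sum, at 36.6 to 63.4 CPM over the 9 livers, and it was not called. S100a8, a neutrophil protein, had 2.47, 2.59 and 1.97 CPM in the ConvD livers, 0.227, 0.0993 and 0.0545 in the GF+SCFA livers and 0.163, 0.198 and 0.282 in the GF livers, without overlap of ConvD with either group. The sum of the 6 hepatocyte markers, most of it Alb, overlapped between groups, at 96705 to 124762 CPM in ConvD livers, 93275 to 112311 in GF+SCFA livers and 100778 to 116615 in GF livers. Of the 6, Ttr was called higher and Cps1 lower in ConvD livers, with log2 fold changes of 0.36 (adjusted p = 0.0143) and -0.67 (adjusted p = 0.00262) over GF and of 0.30 (adjusted p = 0.0241) and -0.47 (adjusted p = 0.0126) over GF+SCFA. Of 4 pancreas markers, Prss2 and Pnlip were at 0 in all libraries, Ctrb1 was at 0 in 8 of 9, and Cela1 was at 15 to 25.6 CPM. Cela1, the one of them tested, was lower in ConvD livers, with a log2 fold change of -0.34 over GF (adjusted p = 0.0275) and -0.56 over GF+SCFA (adjusted p = 0.00127). The part of the cell type markers in the members' values was not tested.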

How the data were processed

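Liver RNA was read as polyadenylated RNA from a stranded TruSeq kit, per the labels' protocols. Bowtie2 and RSEM 1.2.23 on mm9 are named in the submitters' processing notes. The strand setting is not given in the sources used here. The deposited tables hold unnormalised expected counts and TPM, which the authors scaled for length and depth. Both were used, and the FPKM that the authors deposited beside them were not. Depth was 18193071 to 21627696 expected counts per library, and no 2 libraries of a group were copies by a chi-square test.

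Expected counts were rounded and fitted with edgeR 4.0.16 (filterByExpr with a minimum count of 10, TMM, robust quasi-likelihood, 9 samples in 3 groups without covariates) with Benjamini-Hochberg adjustment over 12037 genes. CPM are scaled by TMM. The biological coefficient of variation was 10.6%. The fit was checked on simulated data. Standard errors were taken as the size of the log2 fold change over the root of F. Of 197 list entries, 196 were found, some by RefSeq accession. Members and lists were chosen with earlier results of these data known. All members are named, and of each list up to 4 called genes with the smallest p, besides Ido1, Nnt and Naprt, except some that are not reported here; Tk1, Tph1 and the single marker genes were named after their values were seen. Alternatives were other scalings and filters, DESeq2 1.42.0, limma 3.58.1 on log2(TPM + 1), fits of only the groups compared, a replicate block and leaving out each library.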

Additional observations from a re-analysis of the deposited data

How the results depend on the processing

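Precision was limited by 3 livers a group: fold changes of the members near 1.2 lay at the threshold, and their calls turned on single libraries. The count of members called between ConvD and GF, 2 in the report, was 1 with upper-quartile factors, library totals, no filter on low counts, a mean count of at least 50 or the replicate block, 4 with DESeq2, and 0 with limma on log2(TPM + 1) or a fit of only those groups. It ranged from 0 to 3 when each library was left out, and from 1 to 3 between ConvD and GF+SCFA. Genes called between ConvD and GF numbered 1019 with limma and 848 to 1466 without a library, and those between ConvD and GF+SCFA 1383 to 2396. Between GF+SCFA and GF, 5 genes became 9 with library totals, 79 with DESeq2, 1 with limma and 24 with no filter, and 0 to 173 without a library, the 173 without GF replicate 3.

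Afmid, GF+SCFA over GF, was -0.01 with limma. Tdo2, ConvD over GF+SCFA, was 0.04 with upper-quartile factors and limma, 0.05 with library totals and 0.00 with a mean count of at least 50. The cause was not tested. Leaving out each library in turn also turned signs. The log2 fold change of ConvD over GF ranged from -0.32 to 0.02 for Tdo2 and -0.01 to 0.06 for Kynu. That of GF+SCFA over GF ranged from -0.17 to 0.02 for Ido2, -0.04 to 0.05 for Afmid, -0.02 to 0.42 for Acmsd, -0.12 to 0.06 for Nadsyn1 and -0.02 to 0.30 for Nampt, and that of ConvD over GF+SCFA from -0.23 to 0.11 for Tdo2. The difference in log2 ratio of Ido2 to Tdo2 ranged from -0.27 to 0.09 (ConvD against GF), -0.14 to 0.17 (GF+SCFA against GF) and -0.23 to 0.05 (ConvD against GF+SCFA), and that of Kynu to Kmo from -0.03 to 0.07 (GF+SCFA against GF).

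Whether the replicate numbers pair the samples could not be decided with so few livers in a group. Over 9 pairs of livers with the same number, deviations from group means correlated at -0.084 to 0.226, and 1 pair was over 0.1. Pairs with different numbers correlated at -0.162 to 0.151, so the ranges overlapped. Of the livers, 5 of 9 correlated best with their own number. With the replicate block, Acmsd passed between ConvD and GF (adjusted p = 0.00872), Afmid (0.0551) and Haao (0.0672) did not, and Kmo did not between ConvD and GF+SCFA (0.0625).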
